A study of Mus musculus with 16 samples.

Results

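Mitosis and G2/M genes are the transcripts a cell makes to leave G2, build a spindle, separate its chromosomes and divide. The 51 genes described here were given as a list of symbols, matched to the Ensembl identifiers of the count tables through GENCODE M21, and followed across all groups; they are 51 of the 54838 gene identifiers counted. All 51 passed the filter on low counts that left 12612 genes for testing. The cells were bone marrow-derived macrophages, which are grown from marrow of the femur and tibia in medium containing L929-conditioned medium, a source of the growth factor CSF1 (M-CSF). Every culture carried the Apoe-null allele (given as B6.129P2-Apoetm1Unc/J, on the strain C57BL/6J), and no group analysed here had intact Apoe. The cultures had been moved to medium without the conditioned supplement before stimulation, and stimulation took place without serum. The groups had 4 libraries each: the DMSO group; the TNFα group, at 50 ng/ml for 24 h; the TMP195+TNFα group, pretreated for 1 h with 5 µM TMP195, an inhibitor of class IIa histone deacetylases; and the TPCA-1+TNFα group, pretreated for 1 h with 500 nM TPCA-1, an inhibitor of the kinase IKKβ. No group analysed here had an inhibitor without TNFα, and the labels do not state whether the TNFα group received DMSO. The age and sex of the mice, and whether replicates were separate animals, were not given in the sources used here, so the p-values speak of the spread among these libraries alone.

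Entry into mitosis is driven by CDK1 bound to cyclin B, and exit by the anaphase-promoting complex, which marks cyclin B and securin for destruction. Many genes of this program are held off outside G2 by the DREAM and retinoblastoma complexes and switched on by B-MYB and FOXM1, through promoter elements named CHR (cell cycle genes homology region) and CCAAT (the NF-Y box). Macrophages in culture divide in response to CSF1, and a fully differentiated macrophage can rest without dividing. In bulk RNA, fewer dividing cells and less RNA per dividing cell cannot be told apart.

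The promoters are shown first because most of them hold one of those elements. RefSeq promoter windows on GRCm38.p6, from 250 bases before the annotated start to 50 after it, were at hand for 44 of the 51 members. The windows below start 120 bases before the start site and are printed 5′ to 3′ on the gene's strand, with the last bases lying past the start. Capitals mark each match to TTTGAA (CHR) or CCAAT on either strand, so that a match on the opposite strand reads TTCAAA or ATTGG. Cdk1 (chr10:69352909-69353032, minus strand), Kif11 (chr19:37376262-37376396, plus strand), Cdc20 (chr4:118437329-118437463, minus strand) and Kif23 (chr9:61946785-61946919, minus strand) are members that fell with TNFα. Hmmr (chr11:40733423-40733557, minus strand) and Gtse1 (chr15:85859587-85859721, plus strand) are members that were not called.
Cdk1: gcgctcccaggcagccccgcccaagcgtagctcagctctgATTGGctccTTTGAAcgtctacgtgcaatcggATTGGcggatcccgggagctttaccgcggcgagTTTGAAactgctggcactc
Kif11: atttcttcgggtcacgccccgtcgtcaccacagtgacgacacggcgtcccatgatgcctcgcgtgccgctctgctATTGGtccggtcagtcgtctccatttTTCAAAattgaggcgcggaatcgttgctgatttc
Cdc20: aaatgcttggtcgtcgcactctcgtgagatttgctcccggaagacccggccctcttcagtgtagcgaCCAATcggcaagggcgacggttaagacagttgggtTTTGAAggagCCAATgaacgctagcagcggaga
Kif23: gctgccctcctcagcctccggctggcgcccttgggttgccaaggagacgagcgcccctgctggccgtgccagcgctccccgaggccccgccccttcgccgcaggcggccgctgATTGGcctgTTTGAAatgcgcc
Hmmr: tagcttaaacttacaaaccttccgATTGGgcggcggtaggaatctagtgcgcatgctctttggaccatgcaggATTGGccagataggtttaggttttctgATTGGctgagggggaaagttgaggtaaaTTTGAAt
Gtse1: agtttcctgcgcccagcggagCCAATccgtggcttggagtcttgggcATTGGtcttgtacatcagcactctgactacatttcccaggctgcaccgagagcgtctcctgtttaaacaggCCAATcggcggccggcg

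TTTGAA was found on either strand in 32 of the 44 member windows (72.7%), against 17.9% of all 32851 RefSeq windows of the same length. In 29 of those 32 members a match began within 50 bases of the start site. The position of matches in all RefSeq windows was not counted, so this has no background beside it. CCAAT was also found in 32 of 44 (72.7%), against 37.4% of all windows. The CHR variant TTCGAA, which does not overlap TTTGAA, was found in 3 members (6.82%, against 1.56%). The E2F sites TTCGCGC or TTGGCGC were found in 9 members (20.5%, against 3.89%). Among members whose RNA fell with TNFα (below), 31 of 40 windows held TTTGAA, and among members that did not pass the test 1 of 4 did: the Hmmr window held it and those of Gtse1, Melk and Pttg1 did not. In the same order CCAAT was found in 30 of 40 and 2 of 4, the E2F sites in 8 of 40 and 1 of 4, and TTCGAA in 3 of 40 and 0 of 4. Incenp and Smc4, which did not pass either, had no window. With 4 windows in the smaller class, these counts only describe these windows. A match is a run of letters, and binding was not measured.

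**Figure D1:**
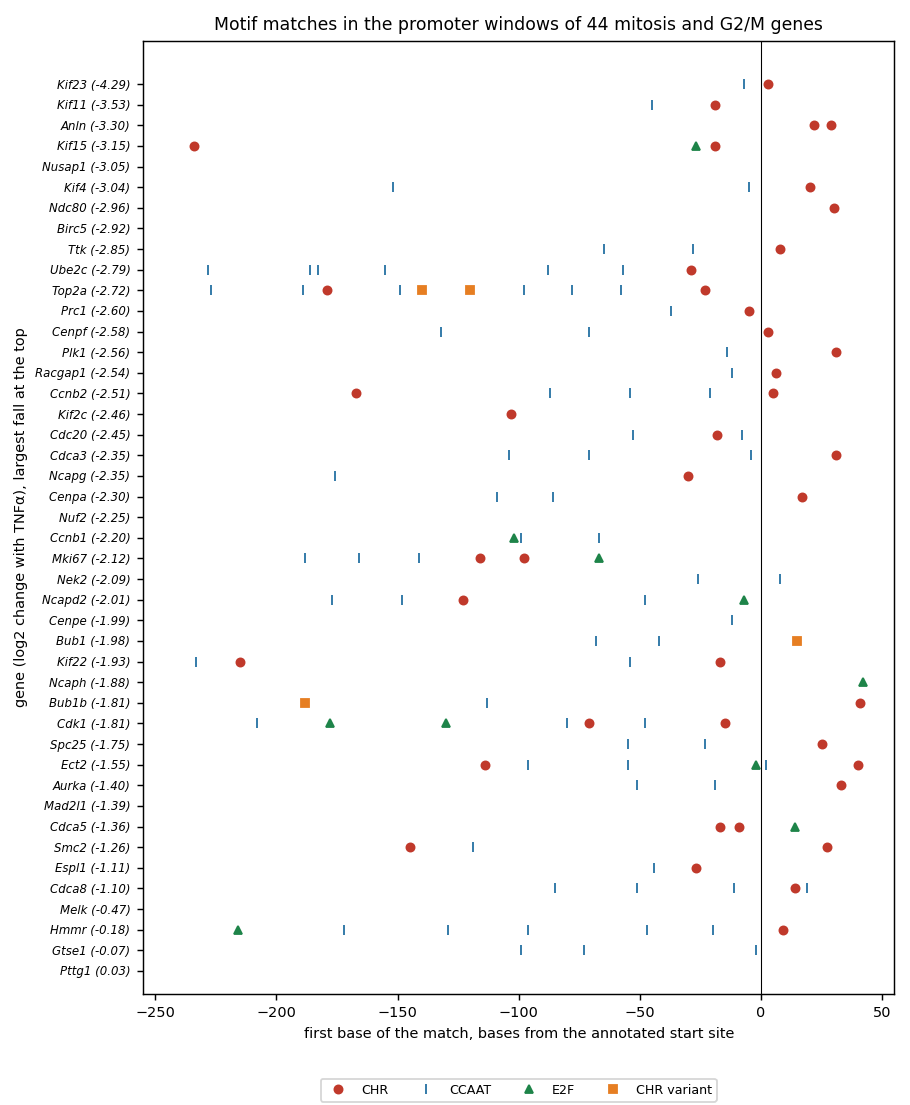
Position of each motif match in the promoter windows of 44 mitosis and G2/M genes, in bases from the annotated start site (vertical line at 0), with genes ordered by their log2 change with TNFα (in brackets). Red circles (CHR, TTTGAA) lie near the start in most of the 32 genes that have one; Nuf2, Nusap1, Mad2l1 and Birc5, which fell, and Melk and Pttg1, which were not called, have no match to any of the motifs, and Nek2 and Cenpe, which fell, and Gtse1, which was not called, have CCAAT matches only.

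Counted reads came to 7.49 to 31.6 in units of 1e6 per library, so that 3 counts correspond to 0.095 to 0.401 per 1e6 counted reads. Levels are given as CPM, counts per 1e6 on effective library sizes, which differ from the counted reads. TPCA-1+TNFα replicate 2 stood apart with the lowest value and 44.0% of its reads unmapped. The other 15 libraries had at least 18.6 counted reads in these units and 4.0% to 7.1% unmapped. Calls of members that involve TPCA-1+TNFα are given without replicate 2 where they move. Counts for other gene lists were not refitted without it. All 10 macrophage markers were present, with Lyz2 the highest; they summed to 16490 to 25565 CPM with DMSO, 17860 to 26050 with TNFα, 12610 to 18037 with TMP195+TNFα and 12987 to 21235 with TPCA-1+TNFα. Of these 10, 5 were called lower and 1 higher with TNFα against DMSO, 1 lower with TMP195 against TNFα alone (4 lower and 1 higher with a replicate block), and 4 lower and 1 higher with TPCA-1 against TNFα alone. Markers of progenitors, which divide in marrow, summed to at most 0.44 CPM in any library, with Elane, Ctsg and Ms4a3 at 0 in all 16. Of the lymphocyte markers Ighm was the highest; their sum was 75.2 to 122 CPM with DMSO, 34.4 to 58.1 with TNFα, 24.5 to 32.9 with TMP195+TNFα and 61.6 to 116 with TPCA-1+TNFα. Neutrophil markers summed to 17.1 to 23.2 CPM with DMSO, 65.9 to 115 with TNFα, 35.6 to 61.6 with TMP195+TNFα and 21.2 to 65.4 with TPCA-1+TNFα, with S100a8 at 0.780 to 2.27 CPM with DMSO and 46.7 to 87.7 CPM with TNFα, and Ly6g, S100a9, Ngp and Retnlg at 0 in every library. Mast cell and dendritic cell markers summed to at most 0.114 and 2.03 CPM. The stromal list, with Pecam1 the highest and Col3a1 at 0, summed to 8.09 to 11.1 CPM with DMSO, 4.49 to 7.95 with TNFα, 4.75 to 6.99 with TMP195+TNFα and 15.9 to 40.1 with TPCA-1+TNFα. Of the erythroid and megakaryocyte markers Alas2, Hbb-bs and Gp1bb were at 0, beside Pf4 at 1133 to 1390 CPM with DMSO, 1269 to 1694 with TNFα, 1387 to 1763 with TMP195+TNFα and 483 to 1064 with TPCA-1+TNFα. The part of these differences in the results was not tested.

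Macrophages given TNFα held far less mitotic RNA than the DMSO cultures. Of the 51 members, 45 fell (adjusted p under 0.05 by edgeR's quasi-likelihood test with Benjamini-Hochberg adjustment), none rose and 6 did not pass; at an unadjusted p under 0.05 the counts were 46 lower and 0 higher, and DESeq2 called 45 lower and 0 higher. Over all genes tested, 12.4% were called lower and 10.9% higher. Each of the 45 fell by at least 2-fold, a size reached by 5.7% of all genes. The median log2 change of the members was -2.20, against 0.0018 for all genes. In 45 members the 4 TNFα libraries all lay below the 4 DMSO libraries, a pattern seen in 14.3% of all genes. Nek2, Cenpf and Plk1 passed the filter on low counts through the DMSO libraries, where they were high. Their means were 0.875, 1.15 and 1.48 CPM with DMSO and 0.201, 0.208 and 0.245 CPM with TNFα. For these 3 genes, entry into the test was thus tied to the DMSO level. A fit with no filter called 45 members lower too. Summed over the members, the level was 509 ± 97.0 CPM (SD, n = 4) with DMSO and 211 ± 9.96 CPM with TNFα, and the DMSO libraries spread from 390 in replicate 2 to 617 in replicate 3.

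**Figure D2:**
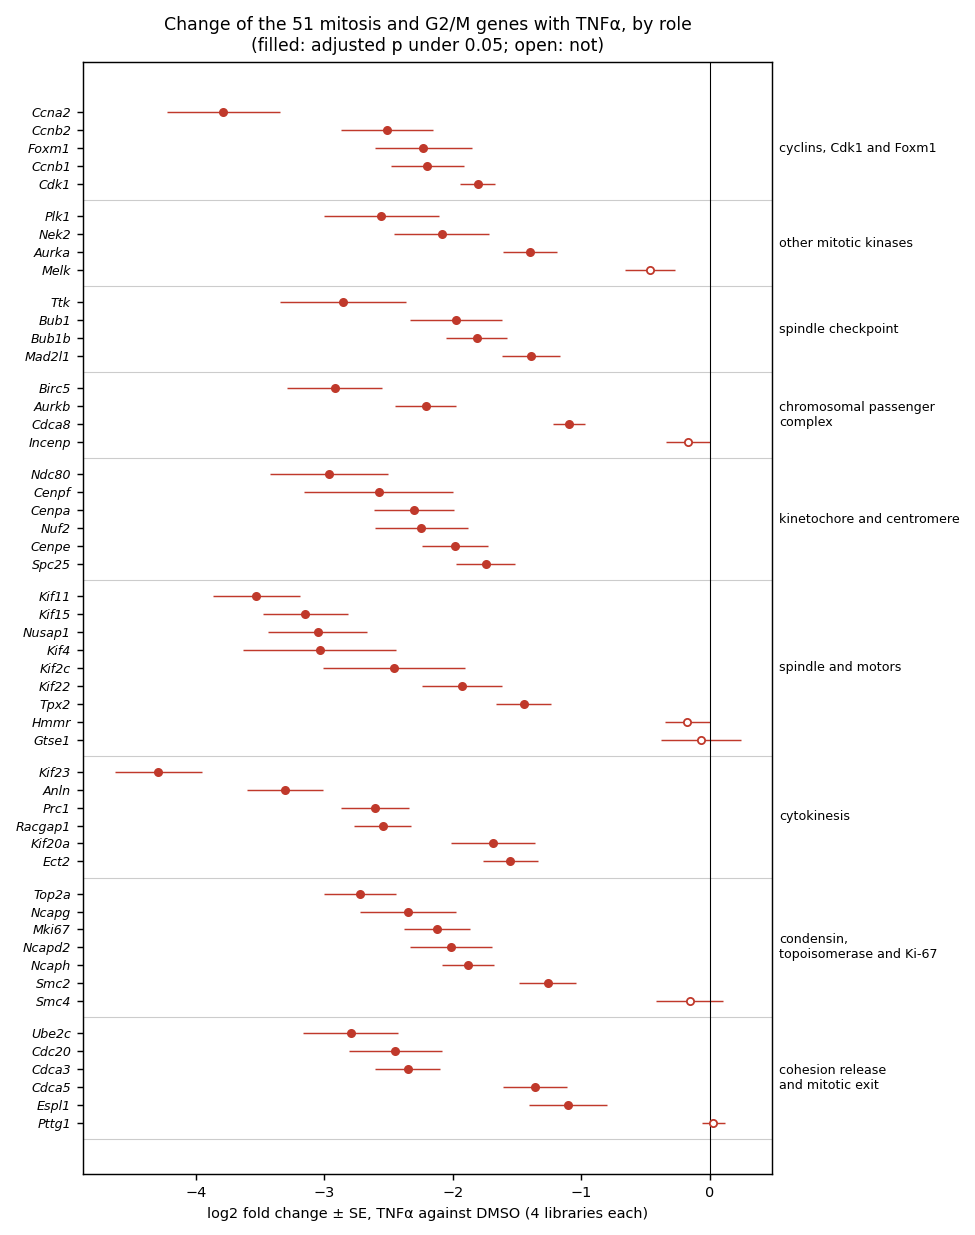
Log2 fold change ± SE of each of the 51 genes, TNFα against DMSO, with genes grouped by role (right); filled points passed the test and open points did not. The 6 open points (Melk, Incenp, Hmmr, Gtse1, Smc4, Pttg1) lie between -0.47 and 0.03, and all filled points lie at -1.10 or below.

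All 5 genes of the entry machinery fell: Cdk1, Ccna2, Ccnb1, Ccnb2 and Foxm1, with a median log2 change of -2.23. In what follows 4 values are in the order of replicates 1 to 4. Cdk1, the catalytic kinase, stood at 27.8, 25.8, 38.8 and 34.3 CPM with DMSO and at 8.64, 9.52, 9.60 and 8.40 CPM with TNFα. Ccnb1, the cyclin B that CDK1 needs, stood at 5.78, 5.67, 10.4 and 8.11 CPM with DMSO and 1.99, 1.47, 2.27 and 0.724 CPM with TNFα. For both genes the groups were far apart, with DMSO replicate 3 the highest library. The changes were -1.81 ± 0.14 for Cdk1 (3.50-fold lower, adjusted p = 7.54e-08) and -2.20 ± 0.28 for Ccnb1 (4.59-fold lower, adjusted p = 1.76e-05). Foxm1, the transcription factor of the G2/M program, went from 4.99, 2.61, 5.59 and 8.27 CPM to 0.909, 0.834, 1.45 and 1.30 CPM, a change of -2.23 ± 0.38. Ccna2, cyclin A, which acts from S phase into early mitosis, fell most in this set, by 3.79 ± 0.44 on the log2 scale.

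Among the other mitotic kinases 3 of 4 fell and the median was -1.74. Plk1, which drives centrosome maturation and mitotic entry, was a low transcript, at 0.946, 0.887, 1.74 and 2.34 CPM with DMSO and 0.171, 0.0491, 0.230 and 0.531 CPM with TNFα, where replicate 2 holds 1 count and is under the floor. Its groups did not overlap (-2.56 ± 0.45, adjusted p = 0.000376). Aurka, the centrosome kinase, and Nek2, which separates centrosomes, changed by -1.40 ± 0.21 and -2.09 ± 0.37 on the log2 scale. Melk, a kinase of the AMPK family, did not pass: it stood at 4.47, 4.93, 6.75 and 6.09 CPM with DMSO and 3.30, 4.42, 4.40 and 3.91 CPM with TNFα, lower in every TNFα library than in any DMSO library. Its change was -0.47 ± 0.20 (adjusted p = 0.0977). In the fit with a replicate block its adjusted p was 0.044, which makes the count 46 of 51.

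All 4 genes of the spindle checkpoint, which delays anaphase until every kinetochore is attached, fell (median -1.90), and all 6 kinetochore and centromere members did (median -2.27). Bub1, a checkpoint kinase, stood at 5.88, 5.27, 9.12 and 5.05 CPM with DMSO and 1.59, 1.96, 1.87 and 0.965 CPM with TNFα (-1.98 ± 0.36). Ndc80, which binds microtubule ends, stood at 4.04, 2.71, 6.44 and 3.43 CPM and 0.853, 0.834, 0.394 and 0.0965 CPM (-2.96 ± 0.46). The groups were apart for both. Cenpa, the histone H3 variant that marks centromeres, went from 4.78, 3.89, 8.49 and 7.80 CPM to 1.02, 1.37, 1.28 and 1.35 CPM, with the TNFα libraries close to one another and the DMSO libraries spread widely. Its change was -2.30 ± 0.31 (adjusted p = 2.84e-05). The partners Nuf2 (-2.25 ± 0.36) and Spc25 (-1.75 ± 0.23) of the NDC80 complex fell as well, as did the checkpoint genes Ttk (-2.85 ± 0.49), Bub1b (-1.81 ± 0.24) and Mad2l1 (-1.39 ± 0.22).

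The chromosomal passenger complex, which corrects faulty attachments and later directs cytokinesis, was split: 3 of its 4 genes fell and its scaffold gene Incenp did not pass. Aurkb, its kinase, stood at 7.41, 5.12, 10.7 and 9.05 CPM with DMSO and 1.88, 1.18, 2.00 and 1.88 CPM with TNFα, with no overlap (-2.21 ± 0.24). Birc5, survivin (-2.92 ± 0.37), and Cdca8, borealin (-1.10 ± 0.13), fell as well. Incenp stood at 20.7, 16.8, 26.7 and 28.1 CPM with DMSO and 20.7, 17.8, 20.4 and 23.0 CPM with TNFα. The Incenp groups overlapped, and the change was -0.17 ± 0.17 (adjusted p = 0.539).

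Spindle and motor genes fell in 7 of 9 cases (median -2.46), and cytokinesis genes in 6 of 6 (median -2.57). Kif11, the kinesin that pushes spindle poles apart, stood at 5.88, 5.52, 10.1 and 7.39 CPM with DMSO and 0.625, 0.932, 0.592 and 0.338 CPM with TNFα. That is 11.6-fold lower (-3.53 ± 0.34, adjusted p = 8.19e-07), with every TNFα library below 1 CPM. Kif23, the motor subunit of the centralspindlin complex that builds the midzone, changed most of the 51: 5.94, 5.77, 10.1 and 9.26 CPM with DMSO and 0.455, 0.540, 0.197 and 0.434 CPM with TNFα (19.6-fold lower, -4.29 ± 0.34, adjusted p = 9.56e-08). Racgap1, the other centralspindlin subunit, stood at 8.30, 6.55, 10.7 and 8.95 CPM and 1.25, 1.82, 1.68 and 1.11 CPM (-2.54 ± 0.22). Prc1, the midzone bundler, stood at 5.46, 3.94, 7.38 and 6.92 CPM and 1.08, 0.736, 1.08 and 0.965 CPM (-2.60 ± 0.27). In none of these genes did the groups overlap. Anln, the contractile ring scaffold (-3.30 ± 0.30), Kif15, a spindle motor (-3.15 ± 0.33), and Ect2, the RhoA activator of the cleavage furrow (-1.55 ± 0.21), fell as well.

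The spindle members that did not pass were Hmmr and Gtse1. Hmmr, a spindle pole protein and hyaluronan receptor, stood at 3.78, 3.35, 5.72 and 5.51 CPM with DMSO and 3.86, 4.47, 3.81 and 4.15 CPM with TNFα. Gtse1, a microtubule-binding protein that also restrains p53, stood at 13.6, 9.71, 11.8 and 17.9 CPM and 11.5, 9.23, 12.8 and 16.8 CPM. For both genes the TNFα libraries overlapped the DMSO range, and the changes were -0.18 ± 0.18 for Hmmr (adjusted p = 0.543) and -0.07 ± 0.31 for Gtse1 (adjusted p = 0.91).

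Among condensin, topoisomerase and Ki-67 genes 6 of 7 fell (median -2.01). Top2a, which untangles sister chromatids, stood at 16.1, 10.4, 25.1 and 16.6 CPM with DMSO and 2.05, 3.09, 2.63 and 2.51 CPM with TNFα (-2.72 ± 0.28). Mki67, the widely used proliferation marker, stood at 29.1, 20.5, 39.4 and 34.3 CPM and 6.99, 6.48, 7.82 and 7.00 CPM (-2.12 ± 0.26). In neither gene did the groups overlap. Ncapg, a condensin I subunit, went from 3.94, 3.50, 5.72 and 3.59 CPM to 1.08, 0.932, 0.559 and 0.772 CPM (-2.35 ± 0.37). Of the condensin core pair, Smc2 stood at 21, 17.4, 23.3 and 17.4 CPM with DMSO and 10.6, 8.69, 7.95 and 5.79 CPM with TNFα (-1.26 ± 0.22, adjusted p = 0.000325). Smc4 stood at 47.1, 35.1, 40.4 and 29.3 CPM and 43.1, 32.5, 32.7 and 27.9 CPM, with overlapping groups (-0.16 ± 0.26, adjusted p = 0.733). The difference between the changes of Smc2 and Smc4 was not tested. Smc4 is the host gene of Mir15b and Mir16-2, which the annotation places inside it on the same strand.

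Of the genes of cohesion release and mitotic exit 5 of 6 fell (median -1.86). Cdc20, the activator of the anaphase-promoting complex, stood at 1.52, 1.13, 2.32 and 3.02 CPM with DMSO and 0.284, 0.491, 0.296 and 0.386 CPM with TNFα (-2.45 ± 0.36), and Ube2c, which supplies the complex with ubiquitin, fell by 2.79 ± 0.37 on the log2 scale. Espl1, separase, the protease that cleaves cohesin, fell by 1.11 ± 0.30 (adjusted p = 0.0124), but its groups overlapped. Without DMSO replicate 4 its adjusted p was 0.0555; the other 44 calls held whichever of the 8 libraries was left out. Pttg1, securin, the inhibitor of separase, stood at 43.6, 43.9, 40.4 and 38.9 CPM with DMSO and 45.0, 43.1, 40.1 and 41.7 CPM with TNFα. Its groups lay on top of each other (0.03 ± 0.09, adjusted p = 0.881).

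Per length, on the scale of mean CPM per kilobase of exon, the order of levels changed with TNFα. With DMSO the members highest per kilobase were Pttg1 (20.9), Smc4 (7.29), Cdk1 (6.42), Ube2c (6.24), Incenp (5.33) and Gtse1 (4.83). With TNFα the highest were Pttg1 (21.2), Smc4 (6.54), Incenp (4.73) and Gtse1 (4.59), all of them genes that had not passed the test, and Cdk1 was at 1.83 and Ube2c at 0.900. At the other end Cenpf, a large kinetochore protein, stood at 0.0745 per kilobase with DMSO. It had 0 counts in TNFα replicate 3, where 3 counts are 0.0949 per 1e6 counted reads.

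**Figure D3:**
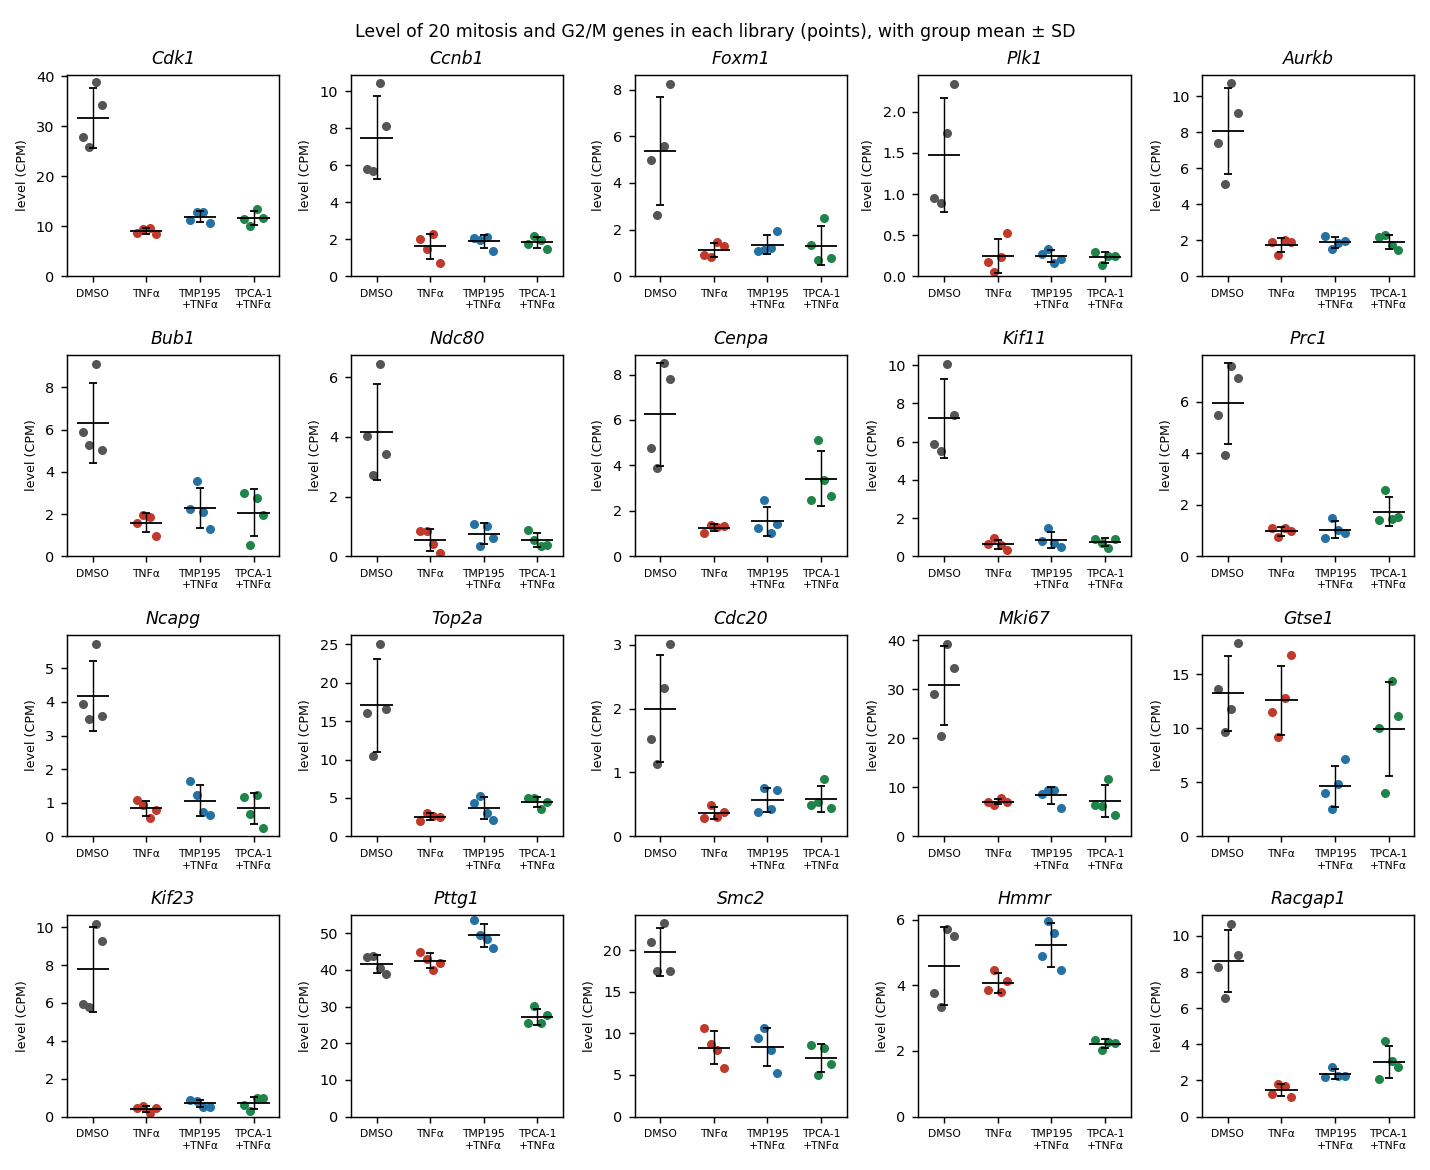
Level in CPM of 20 of the genes in each library (points), with the mean ± SD of each group of 4; each panel has its own axis starting at 0. Most panels show DMSO high and the 3 TNFα-treated groups low; Gtse1 has its lowest mean with TMP195+TNFα (4.64 CPM), and Pttg1 and Hmmr have theirs with TPCA-1+TNFα (27.2 and 2.22 CPM).

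Genes of neighbouring steps outside the 51 moved in the same contrast as follows. Among 25 tested of 27 other kinetochore and centromere genes, 18 fell and 1 rose with TNFα: Cenpn went from 4.42 ± 0.968 to 0.894 ± 0.181 CPM, whereas Zwint, a kinetochore linker, rose from 87.1 ± 10.1 to 176 ± 18.1 CPM (1.02 ± 0.11, adjusted p = 1.99e-06). Among 23 tested of 25 other spindle and centrosome genes, 16 fell, with Tacc3, a stabiliser of kinetochore fibres, going from 18.8 ± 3.87 to 6.92 ± 0.928 CPM. Of 13 genes of CDC25, WEE1 and mitotic phosphatase control, 6 fell, and these included opposing regulators of CDK1: Wee1, the kinase that restrains it (-2.12 ± 0.23), and Cdc25b, a phosphatase that activates it (-1.86 ± 0.23). Of 17 genes of the anaphase-promoting complex and its regulators 1 was called, Fbxo5, the inhibitor known as EMI1 (-2.0 ± 0.29), and no subunit passed. Of 14 cohesin genes 4 fell, among them Sgo1, the protector of centromeric cohesion, which went from 2.07 ± 0.409 to 0.290 ± 0.209 CPM.

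Upstream of mitosis, 31 of 35 DNA replication genes fell and the other 4 did not pass, with a median log2 change of -1.75 and a summed level of 765 ± 82.7 CPM with DMSO against 305 ± 14.8 CPM with TNFα. Of 19 retinoblastoma, E2F and DREAM genes 8 fell, among them Mybl2 (B-MYB), from 1.36 ± 0.304 to 0.151 ± 0.0534 CPM, and E2f8, from 6.55 ± 2.03 to 0.724 ± 0.203 CPM. Of 16 genes of G1 cyclins, their kinases and inhibitors, 6 fell and 2 rose: Ccnd1 (cyclin D1) went from 206 ± 54.6 to 31.4 ± 7.70 CPM, and the inhibitor gene Cdkn2b (p15) from 3.46 ± 1.55 to 25.5 ± 2.56 CPM. Of 15 p53 target genes 8 rose, among them Aen (0.70 ± 0.14) and Phlda3 (0.74 ± 0.16), and the other 7 did not pass. Over all genes 12.4% were called lower and 10.9% higher in this contrast.

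With TMP195 added, most mitotic transcripts had estimates slightly above those with TNFα alone, and few passed the test. Against TNFα alone 1 of 51 members was lower, Gtse1, and none was higher. At an unadjusted p under 0.05 there were 8 members over both directions together, and DESeq2 called 1 lower and 0 higher. Over all genes 3.0% were called lower and 2.95% higher. The median log2 change of the members was 0.25, against 0.0151 for all genes, and 43 of the 51 estimates lay above 0. The summed level was 223 ± 21.5 CPM (191 to 237), beside 211 ± 9.96 CPM (199.8 to 224) with TNFα alone, and the groups overlapped. This sum leans on members that were not called with TNFα. With TNFα alone Pttg1, Smc4, Incenp and Gtse1 had the highest means (42.5, 34.1, 20.5 and 12.6 CPM). Gtse1 was at a mean of 4.64 CPM with TMP195+TNFα.

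Gtse1, one of the members that were not called with TNFα, stood at 11.5, 9.23, 12.8 and 16.8 CPM with TNFα and at 3.98, 2.58, 4.87 and 7.14 CPM with TMP195+TNFα. Every TMP195+TNFα library lay below every TNFα library, as in 7.0% of all genes, and in both groups replicate 2 was the lowest and replicate 4 the highest. The change was -1.43 ± 0.33 (2.70-fold lower, adjusted p = 0.0140), and it was called in each of the 8 fits that left out 1 of these libraries, with an adjusted p of at most 0.0470. Against DMSO, Gtse1 was lower in the TMP195+TNFα group as well (-1.51 ± 0.33, adjusted p = 0.00192).

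In the fit with a replicate block, 3 members were called higher with TMP195: Cdk1, Racgap1 and the NDC80 complex gene Spc25 (adjusted p = 0.0347, 0.0491 and 0.0418), and 1699 genes were called in all, against 750 without the block; 6.91% of all genes were called higher in that fit. Cdk1 stood at 11.1, 12.8, 12.8 and 10.7 CPM with TMP195+TNFα, all above the TNFα libraries, which reached 9.60 CPM. Its change was 0.39 ± 0.14 (adjusted p = 0.109 without the block). Racgap1 stood at 2.18, 2.77, 2.22 and 2.25 CPM, also above its TNFα libraries (0.68 ± 0.23, adjusted p = 0.0959). Spc25 stood at 3.55, 2.67, 2.49 and 1.78 CPM against 1.93, 1.96, 1.48 and 1.06 CPM, where the groups overlapped. In all 3 genes every TMP195+TNFα library lay below every DMSO library, as in 44 of the 51 members. Over all genes 13.9% were called lower with TMP195+TNFα than with DMSO. In 5 members (Cdk1, Cdca8, Anln, Pttg1 and Racgap1) the TMP195+TNFα libraries all lay above the TNFα libraries, as they did in 8.03% of all genes.

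Outside the 51, Wee1 was higher with TMP195 (8.04 ± 1.41 against 4.12 ± 0.862 CPM, 0.96 ± 0.23, adjusted p = 0.0205), as was Spdl1, which recruits dynein to kinetochores (0.65 ± 0.18). Of the 16 genes of the G1 list 2 were higher, the inhibitor gene Cdkn1c (p57) and the cyclin D kinase gene Cdk6 (337 ± 19.4 against 245 ± 20.6 CPM), and 2 were lower. Of the lower pair Cdkn1a (p21), an inhibitor induced by p53, stood at 519 ± 112 CPM against 814 ± 163 CPM (-0.65 ± 0.18). Of the 15 p53 target genes, a list that also holds Cdkn1a, 4 were lower and 2 higher. The lower ones, with Cdkn1a counted again among them, were led by Phlda3 (-0.96 ± 0.17). With the replicate block 7 were lower, in a fit that called 1699 genes in all, against 750 without the block. The 35 DNA replication genes had a median log2 change of 0.13; edgeR and DESeq2 called 0 of them in either direction, 4 were higher and 0 lower at an unadjusted p under 0.05, and 3 were called higher in the fit with a replicate block.

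**Figure D4:**
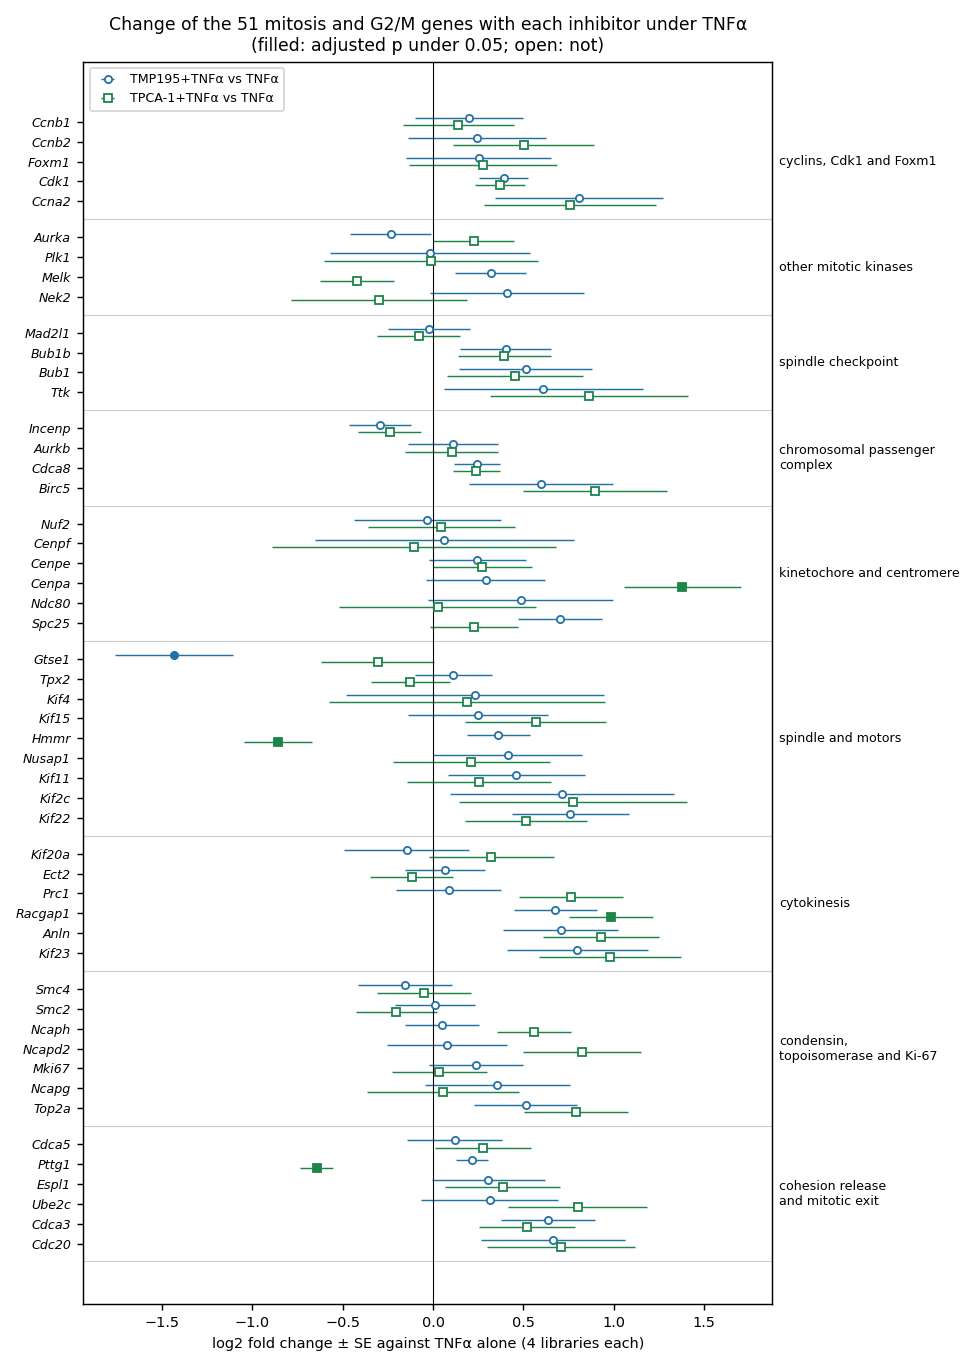
Log2 fold change ± SE of each of the 51 genes with TMP195 (blue circles) and with TPCA-1 (green squares), each against TNFα alone; both contrasts share the TNFα libraries. Filled points passed the test: Gtse1 (-1.43) with TMP195, and Hmmr (-0.86), Pttg1 (-0.64), Racgap1 (0.99) and Cenpa (1.38) with TPCA-1.

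With TPCA-1, 2 of the 51 members were lower than with TNFα alone, Pttg1 and Hmmr, and 2 were higher, Cenpa and Racgap1. Over all genes 9.72% were called lower and 9.67% higher, so that the share of members called (3.92% in each direction) was under the background. The median log2 change of the members was 0.27, against 0.022 for all genes. The summed level was 223, 186, 229 and 192 CPM in replicates 1 to 4 (208 ± 21.6 CPM), with replicate 2 the lowest. With TNFα alone it was 224, 212, 209 and 200 CPM (211 ± 9.96 CPM). Within this sum Pttg1 went from a mean of 42.5 CPM with TNFα to 27.2 CPM with TPCA-1+TNFα, whereas 38 of the 51 estimates lay above 0. Without TPCA-1+TNFα replicate 2 the counts were 2 lower and 3 higher, with Ncaph added and none of the 4 lost.

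Pttg1 (securin) stood at 25.5, 30.1, 25.6 and 27.8 CPM with TPCA-1+TNFα, against 45.0, 43.1, 40.1 and 41.7 CPM with TNFα and 53.5, 49.6, 48.3 and 46.1 CPM with TMP195+TNFα. All 4 TPCA-1+TNFα libraries lay below the other 12. The change against TNFα was -0.64 ± 0.09 (1.56-fold lower, adjusted p = 6.8e-05), and -0.70 without replicate 2. Hmmr stood at 2.35, 2.03, 2.28 and 2.24 CPM, below all other libraries too and in a narrow range. Its change against TNFα was -0.86 ± 0.19 (1.81-fold lower, adjusted p = 0.00368), and -0.84 without replicate 2. A place of all 4 libraries below the 4 TNFα libraries was seen in 9.75% of all genes. Pttg1 and Hmmr both lie on chromosome 11 (Hmmr at 40701395 to 40733422, Pttg1 at 43420250 to 43426251, minus strand, GRCm38). So do Aurkb, Birc5 and Top2a, which were not called lower with TPCA-1, and a link to position was not tested. Both Pttg1 and Hmmr were among the 6 members that were not called with TNFα alone.

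Cenpa stood at 2.49, 5.13, 3.37 and 2.67 CPM with TPCA-1+TNFα, against 1.02, 1.37, 1.28 and 1.35 CPM with TNFα. Racgap1 stood at 2.10, 4.19, 3.07 and 2.72 CPM against 1.25, 1.82, 1.68 and 1.11 CPM. The groups did not overlap for either gene, and in both the highest value was that of replicate 2, the shallow library. The changes were 1.38 ± 0.32 for Cenpa (2.6-fold higher, adjusted p = 0.00609) and 0.99 ± 0.23 for Racgap1 (1.98-fold higher, adjusted p = 0.00616). Without replicate 2 they were 1.16 for Cenpa (adjusted p = 0.0203) and 0.83 for Racgap1 (adjusted p = 0.0185). Cdk1, Top2a, Prc1 and Anln also had all 4 TPCA-1+TNFα libraries above the TNFα libraries, as 8.71% of all genes did, but did not pass (Top2a 0.79 ± 0.29, adjusted p = 0.0646; Prc1 0.76 ± 0.29, adjusted p = 0.0727). DESeq2 called 5 members higher, adding Top2a, Anln and Ncaph, and a fit of these 8 libraries alone called 4, adding Top2a and Anln.

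In the neighbouring lists most calls with TPCA-1 were upward, in a contrast with 9.67% of all genes called higher and 9.72% lower. These list counts include TPCA-1+TNFα replicate 2 and were not refitted without it. Of the 35 DNA replication genes 10 were higher (median 0.40), among them Tyms (6.97 ± 0.614 against 3.77 ± 0.462 CPM) and Mcm5 (0.98 ± 0.20). Their summed level was 373 ± 29.6 CPM against 305 ± 14.8 CPM with TNFα and 765 ± 82.7 CPM with DMSO. Of the 23 other spindle genes 6 were higher and 1 lower, with a median of -0.0081. The higher ones were led by Numa1, which anchors microtubules at spindle poles (0.85 ± 0.16), and Tacc3 (0.78 ± 0.16). Of the 25 kinetochore genes 3 were higher, Pmf1, Cenpn and Zwilch, and of the 13 CDC25 and WEE1 genes 3, Cks1b, Wee1 and Cdc25b. In the G1 list Ccnd1 (55.2 ± 15.8 against 31.4 ± 7.70 CPM) and Ccne1 (0.68 ± 0.22) were higher. The 19 retinoblastoma, E2F and DREAM genes had 2 higher and 2 lower (median -0.11). Of the 14 cohesin genes 0 were called (median -0.098). The anaphase-promoting complex list and the p53 targets each had 2 higher and 0 lower.

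**Figure D5:**
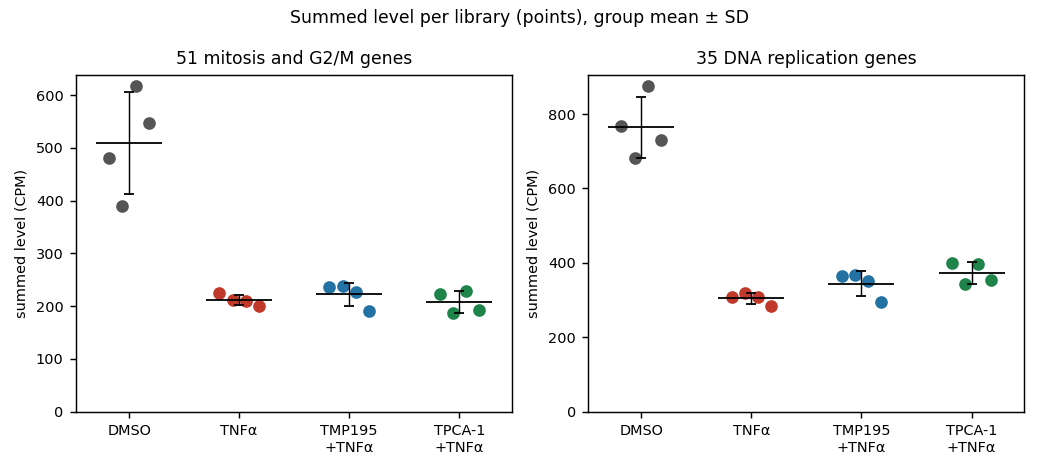
Summed level in CPM of the 51 mitosis and G2/M genes (left) and of 35 DNA replication genes (right) in each library (points), with the mean ± SD of each group of 4. The DMSO libraries lie between 390 and 617 CPM on the left, and the 12 TNFα-treated libraries lie between 186 and 237 CPM. The genes with the highest means on the left with TNFα alone are Pttg1, Smc4, Incenp and Gtse1, which were not called with TNFα.

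Set against each other, at doses that differ (5 µM TMP195 and 500 nM TPCA-1), the inhibitor groups differed in 5 members: Hmmr (1.22 ± 0.19, adjusted p = 0.000127), Pttg1 (0.86 ± 0.09) and Melk (0.74 ± 0.20, adjusted p = 0.0134) were higher with TMP195+TNFα, and Cenpa (-1.09 ± 0.32, adjusted p = 0.0181) and Gtse1 (-1.13 ± 0.33, adjusted p = 0.0178) were lower. Over all genes 13.1% were called higher and 12.6% lower. The Gtse1 groups overlapped, since TPCA-1+TNFα replicate 2 (4.05 CPM) fell within the TMP195+TNFα range. The Hmmr, Pttg1 and Melk calls held in all 8 leave-outs, and the Cenpa and Gtse1 calls in 5 each: both were lost without TMP195+TNFα replicate 1, Cenpa also without TMP195+TNFα replicate 3 or TPCA-1+TNFα replicate 2 (-0.88, adjusted p = 0.0558), and Gtse1 also without TMP195+TNFα replicate 2 or TPCA-1+TNFα replicate 3. The members' median was -0.0079.

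Both inhibitor groups had far lower mitotic levels than DMSO; these contrasts share the DMSO libraries with the TNFα contrast. With TMP195+TNFα 45 members were lower than with DMSO (median -1.83) and 1 was higher, Pttg1 (0.24 ± 0.09, adjusted p = 0.0482), whose call was kept in 1 of 8 leave-outs. The fit with a replicate block and DESeq2 each called 47 lower, adding Incenp (-0.46 ± 0.17, adjusted p = 0.0538, and 0.0116 as the adjusted p with the block) and Espl1 (-0.80 ± 0.30, adjusted p = 0.0567, and 0.0261 as the adjusted p with the block). Over all genes 13.9% were lower and 13.6% higher. With TPCA-1+TNFα 47 were lower (median -1.71) and none higher by edgeR or DESeq2, all 51 estimates lying below 0; over all genes 15.5% were lower and 14.8% higher. The 47 included Hmmr (-1.03 ± 0.19), Pttg1 (-0.62 ± 0.09) and Melk (-0.89 ± 0.20), and the 4 not called were Espl1, Gtse1, Incenp and Smc4. Kif23 was the largest change in both, at -3.49 ± 0.32 with TMP195+TNFα and -3.31 ± 0.32 with TPCA-1+TNFα, and it was -4.29 ± 0.34 with TNFα alone. Kif2c was called lower in both with 6 of 8 leave-outs, its call being lost without DMSO replicate 3 (adjusted p = 0.0775 and 0.0926), and Cenpa was called lower with TPCA-1+TNFα (-0.92 ± 0.30) in 4 of 8, with an adjusted p of 0.0958 without DMSO replicate 3.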

How the data were processed

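RNA was measured by sequencing in 16 libraries of bone marrow-derived macrophages. The authors deposited raw read counts per gene for each library, written by STAR 2.6.1d on mouse build mm10/GRCm38 per the submitters' processing notes; the annotation release is not given in the sources used here. The opposite-strand counts were used, since same-strand counts made up 3.19% to 3.72%. Of 54838 identifiers, 54809 matched GENCODE M21. Rows that name no gene stayed out (reads on no feature made up 1.69% to 4.22%). STAR counts only uniquely mapped reads, so Ccnb1, Ccnb2, Kif4 and Kif22, which have annotated pseudogenes, are less certain.

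The counts went into edgeR 4.0.16 under R 4.3.3 (2-sided quasi-likelihood F test, TMM, filterByExpr), all libraries in 1 model with a mean per group, with Benjamini-Hochberg adjustment over 12612 genes and a threshold of 0.05. The SE is the change divided by the square root of F, and levels are CPM on TMM library sizes. Tested on simulated data for TNFα against DMSO (12430 genes), the fit recovered 68.7% of 2-fold changes and 93% of 4-fold changes and called 6 unchanged genes. Alternatives were DESeq2 1.42.0, RLE size factors, no filter, unstranded counts, 2 groups only, a replicate block and each library left out. Replicates of a group differed by more than counting noise (chi-square per gene 12.9 to 73.4 over 24 pairs). Same-number libraries deviated together in all 12 pairs among DMSO, TNFα and TMP195+TNFα (r = 0.27 to 0.68). These groups look paired by number, from the data, since the labels give numbers only. With TPCA-1+TNFα r was -0.04 to 0.51, so that group did not in every pair. The main fit used no pairing, so its calls, SEs and p-values are unpaired. Pairing entered only through the replicate block, an alternative that called 4034 genes for TNFα against DMSO, against 2945 in the main fit.

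The members, gene lists, roles and tests were chosen with earlier results of these data known. Members may all be named; per-library values are given for fixed members of each role, the largest and smallest change and those moving against the rest, and Melk, Incenp, Smc4 and Spc25 were added after their values were seen. From each pathway list up to 3 genes with the smallest adjusted p may be named, and from each marker list the highest gene and those at 0. Motifs were searched on both strands. 7 members have no entry in the promoter table used here. The floor of 3 counts covers counting error only, whereas the SE and SD include the spread between libraries.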

Additional observations from a re-analysis of the deposited data

Results flagged for a closer look

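Of 100 groups of 4 libraries checked, for the 24 members given library by library and for the summed level, 4 held a library far from the other 3 by Dixon's criterion; chance gives about 1 in 20. With TMP195+TNFα, Foxm1 stood at 1.95 CPM in replicate 4 against 1.09 to 1.22 CPM in the others, and Racgap1 at 2.77 CPM in replicate 2 against 2.18 to 2.25 CPM. With TNFα, Aurkb stood at 1.18 CPM in replicate 2 against 1.88 to 2.00 CPM. With TPCA-1+TNFα, Prc1 stood at 2.57 CPM in replicate 2, the library with the fewest counted reads, against 1.42 to 1.51 CPM.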

How the results depend on the processing

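The fall with TNFα was called in 45 members under RLE size factors, DESeq2, no filter, unstranded counts and a fit of the 2 groups alone, in 46 with the replicate block, and in 44 to 45 when a library was left out. Over all contrasts and members no change that was called turned its direction; of the single-member comparisons, 4845 kept their side of the threshold, 29 lost it and 22 gained it when a library was left out, and 1795, 4 and 21 did so under the other settings.

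Counts that moved by more than 1.5 times were these. Against TNFα, TMP195 changed 750 genes in all, 1209 by DESeq2 and 1699 with the replicate block, and 0 members were higher, 3 with the block. TPCA-1 changed 2446 genes, 3835 with the replicate block and 1551 in the fit of the 2 groups alone; 2 members were higher, 5 by DESeq2, 5 with the block and 4 in the fit of the 2 groups. In the direct comparison 2 members were lower with TMP195+TNFα, 4 with the block. Against DMSO, 1 member was higher with TMP195+TNFα, and 0 under RLE size factors, no filter, unstranded counts and the fit of the 2 groups alone. The cause was not tested. The replicate block changed no other count of members by that much. Matched with each other group in turn, libraries correlated best with their own number in 24 of 24 matches among DMSO, TNFα and TMP195+TNFα. Where TPCA-1+TNFα was involved, they did so in 15 of 24.

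With each library left out in turn, all genes called ranged over 2317 to 3429 for TNFα against DMSO, 446 to 1041 for TMP195+TNFα against TNFα (lowest without TMP195+TNFα replicate 3), 1650 to 3313 for TPCA-1+TNFα against TNFα, 2463 to 3888 for the inhibitors against each other, 2907 to 3909 for TMP195+TNFα against DMSO and 2933 to 4492 for TPCA-1+TNFα against DMSO. Members higher ranged over 0 to 1 with TMP195 (Spc25 without TMP195+TNFα replicate 4), 2 to 5 with TPCA-1 (highest without DMSO replicate 2), 3 to 3 between the inhibitors and 0 to 1 for TMP195+TNFα against DMSO. Members lower ranged over 1 to 1 with TMP195, 2 to 3 with TPCA-1, 0 to 3 between the inhibitors (0 without TMP195+TNFα replicate 1), 44 to 46 for TMP195+TNFα against DMSO and 45 to 48 for TPCA-1+TNFα against DMSO.

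Depth limits the low transcripts: Plk1, Ttk, Kif2c, Nek2 and Nuf2 had a library with 1 count, Kif4 and Cenpf one with 0, and Kif23 and Ndc80 one with 2. The labels give replicates a number and no other link, and no group analysed here had an inhibitor alone, so its effect on resting cells was not measured.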
